A study of Mus musculus with 20 samples.

Results

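The livers of ApoE-/- mice that had received an antagonist of the endosomal receptors TLR7 and TLR9 were compared with the livers of ApoE-/- mice that had received none, 5 arrays against 5, out of 20 arrays in the series. Every probe detected (detection p under 0.05) on 5 or more of these 10 arrays was taken, which left 15780 of the 45281 probes of the Illumina mouse BeadChip. Reduced to 1 probe for each named gene, they gave 11345 features, of which 9280 carried a gene symbol and 2065 did not. The antagonist-treated ApoE-/- mice were injected intraperitoneally with 15 mg/kg, 3 times a week, from week 6 to week 11 of age, and the untreated ApoE-/- mice were given no antagonist. The labels name no vehicle injection for the untreated mice and no compound name for the antagonist. All ApoE-/- mice were males on the C57BL/6 strain, ate a high-fat diet of 21% fat and 0.15% cholesterol by weight from week 6, and gave their livers at 14 weeks of age, weeks after the last injection. The other 10 arrays came from antagonist-treated and untreated C57BL/6 wild-type males of the same age on a different high-fat diet, with 35% fat and 0.03% cholesterol, so a contrast of the genotypes is also a contrast of the diets. The labels number the replicates 1 to 5 in each group but do not state that each is a separate animal, so each p-value reflects only how these arrays vary, and part of that variation may be technical.

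Apolipoprotein E is the ligand by which the liver takes up remnant lipoproteins, and mice without it carry very high plasma cholesterol and develop atherosclerosis on a Western-type diet. TLR7 senses single-stranded RNA and TLR9 senses unmethylated CpG DNA inside endosomes, both signal through the adaptor MyD88, and in the liver they are known chiefly from Kupffer cells, dendritic cells and B cells. Hepatocytes make most of the RNA of a whole liver, so genes of resident and recruited leukocytes appear in it as a minor part. In whole liver, fewer cells of a type and less RNA per cell cannot be told apart.

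The deleted gene was read first. The Apoe probe had log2 intensities of 6.67, 5.98, 6.33, 5.26 and 5.74 in treated ApoE-/- livers, and 6.51, 6.84, 6.88, 5.92 and 6.61 in untreated ApoE-/- livers. Both ApoE-/- groups lay far below the wild-type means of 14.03 in treated and 14.25 in untreated livers, as the genotype labels require. Between 15816 and 17598 probes were detected per treated ApoE-/- array and between 15530 and 16660 per untreated one. The first principal component of the 10 ApoE-/- arrays held 55.4% of their variance and parted the groups, with scores of 34.76, 38.42, 35.55, 24.14 and 5.99 in treated livers, against -30.32 to -25.51 in untreated livers. Treated replicate 5 stood nearest to the untreated livers. The arrays fall in 2 sets by the form of their column names, replicates 1 to 3 and replicates 4 and 5, here called array batches. In the second set the column names of the treated ApoE-/- arrays shared a prefix with those of wild-type arrays, and the untreated ones had another prefix. What the prefix stands for is not stated in the sources used here, and its part cannot be told apart from that of treatment among these ApoE-/- arrays. Untreated replicates 4 and 5 were the only arrays with their prefix. In the fits below with the name prefix as a block, the ApoE-/- change therefore rests on the other untreated arrays. Such a fit cannot test the prefix.

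A large part of the measured liver transcriptome differed between antagonist-treated and untreated ApoE-/- livers. After limma's moderated test with Benjamini-Hochberg adjustment over all 11345 features, 3890 (34.3%) were called at an adjusted p under 0.05. Of these, 2117 (18.7% of the features) were higher in treated livers and 1773 (15.6%) were lower. The changes were mostly modest, with a median size of 0.58 on the log2 scale among the called features. Changes of 2-fold or more were found for 505 features that rose and 170 that fell, and of 4-fold or more for 76 that rose and 14 that fell. Values are log2 of background-corrected, quantile-normalised intensity plus an offset of 16, so a fold change of a dim gene is understated. The lowest treated array lay above the highest untreated one for 1326 features (11.7%), the reverse held for 1017 (8.96%), and the 2 groups were thus apart for 2343 (20.7%). Fitted with the array batch as a block, 4604 features were called. Batch 1 alone gave 3563 calls and batch 2 alone, with 2 arrays a group, 1177. Leaving out treated replicate 5 left 4209 calls. The median change of all features was 0.003, and the gene lists below are read against it and against the shares just given. Counts near those shares are not read as a response of the list. Of the 736 list members measured, 28 were detected on at most 1 untreated array and 4 on at most 1 treated array, so these entered through the group in which they were high.

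**Figure D1:**
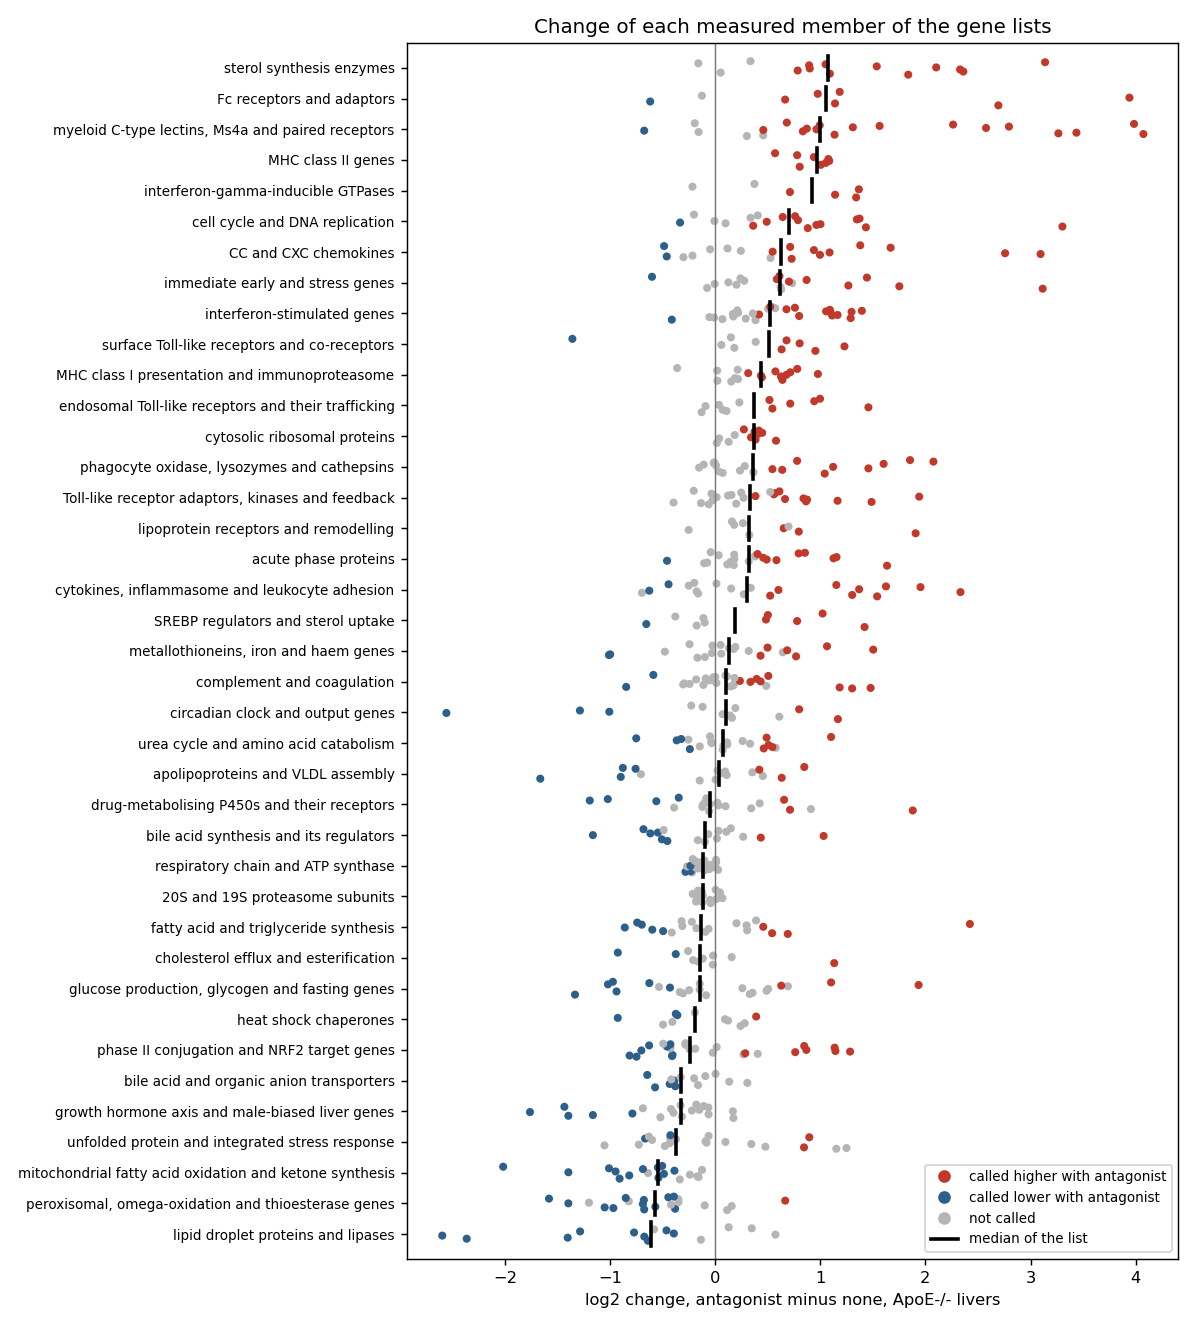
Log2 change (antagonist minus none, ApoE-/- livers) of every measured member of 39 gene lists, ordered by the list median (black bar); red points were called higher, blue points lower and grey points were not called at an adjusted p under 0.05. Sterol synthesis, Fc receptor and myeloid lectin lists stand at the top with medians near 1, and lipid droplet and fatty acid oxidation lists at the bottom with medians near -0.6.

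The enzymes that build cholesterol rose together. Hepatocytes make cholesterol from acetyl-CoA through the mevalonate pathway, and when sterol in the endoplasmic reticulum is low the transcription factor SREBP2 is released and raises these enzymes and the proteins for sterol uptake. Of 14 measured sterol synthesis enzymes, 11 were called higher and 0 lower, with a median change of 1.07, and the other 3 were not called. The median was 1.40 in batch 1 alone, with 12 called higher, and 0.60 in batch 2 alone, with 5. Another 5 of the 20 listed enzymes were not analysed here and 1 was not detected.

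**Figure D2:**
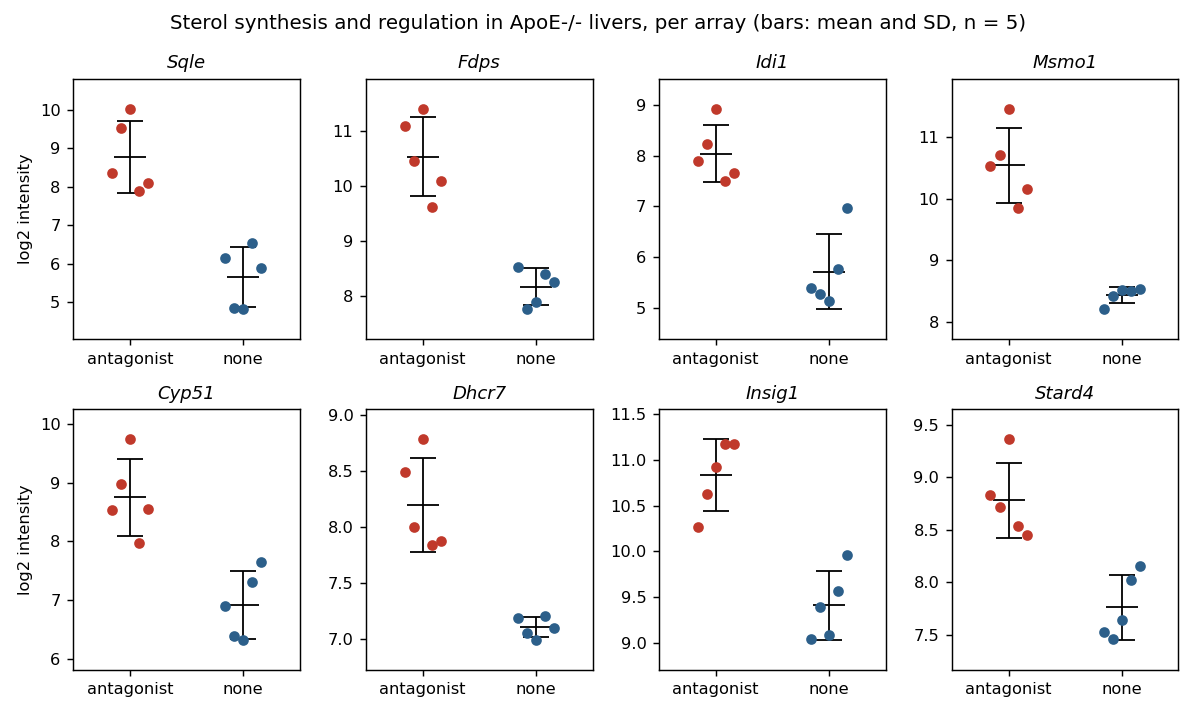
Normalised log2 intensity of 8 genes of sterol synthesis and its control on each ApoE-/- array, antagonist-treated livers in red on the left and untreated livers in blue on the right, with mean and SD (n = 5). In each of the 8 panels the 5 treated arrays lie above the 5 untreated arrays.

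Squalene epoxidase (Sqle), which makes the first oxygenated sterol precursor, had log2 intensities of 8.35, 9.53, 10.03, 7.90 and 8.09 in treated livers, against 6.13, 4.83, 4.81, 6.54 and 5.89 in untreated livers. The groups did not overlap, and the log2 change was 3.14 ± 0.37 (SE, adjusted p = 3.12e-06). A second, dimmer Sqle probe changed by 1.74. Farnesyl diphosphate synthase (Fdps), which joins isoprenoid units on the way to squalene, was at 11.08, 10.45, 11.39, 9.62 and 10.09 in treated livers and at 8.53, 7.75, 7.89, 8.40 and 8.26 in untreated livers, 5.14-fold higher with no overlap. Isopentenyl diphosphate isomerase (Idi1) was at 7.89, 8.23, 8.92, 7.50 and 7.66 in treated livers and 5.39, 5.28, 5.14, 5.77 and 6.97 in untreated livers. Untreated replicate 5 was the highest of the untreated group for Idi1, and still lay below the lowest treated array. The post-squalene enzymes Msmo1 and Cyp51, both of which strip methyl groups from lanosterol-derived intermediates, rose by 2.10 and 1.84, and Dhcr7, the last reductase before cholesterol, by 1.09. The other 5 called enzymes rose by between 0.79 and 1.54.

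To show what lies at the start of these genes, the 300 bases around the RefSeq transcription start (build GRCm38.p6) are printed for 3 of the enzymes and for Insig1, an SREBP target described next. Capitals mark CCAAT, the motif bound by NF-Y, which is known to act beside SREBP, or its reverse complement ATTGG.
Idi1 (chr13:8885356-8885655, plus strand): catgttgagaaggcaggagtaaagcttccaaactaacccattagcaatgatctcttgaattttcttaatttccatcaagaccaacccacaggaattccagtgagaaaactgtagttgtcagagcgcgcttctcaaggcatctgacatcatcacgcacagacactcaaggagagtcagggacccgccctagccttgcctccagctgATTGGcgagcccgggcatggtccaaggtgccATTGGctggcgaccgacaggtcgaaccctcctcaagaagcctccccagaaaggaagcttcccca
Msmo1 (chr8:64733529-64733828, minus strand): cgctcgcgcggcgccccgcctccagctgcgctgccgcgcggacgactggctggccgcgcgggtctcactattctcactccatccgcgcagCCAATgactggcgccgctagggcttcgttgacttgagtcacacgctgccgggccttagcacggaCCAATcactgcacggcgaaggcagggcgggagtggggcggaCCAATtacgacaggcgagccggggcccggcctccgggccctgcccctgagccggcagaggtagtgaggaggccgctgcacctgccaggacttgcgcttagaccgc
Cyp51 (chr5:4104648-4104947, minus strand): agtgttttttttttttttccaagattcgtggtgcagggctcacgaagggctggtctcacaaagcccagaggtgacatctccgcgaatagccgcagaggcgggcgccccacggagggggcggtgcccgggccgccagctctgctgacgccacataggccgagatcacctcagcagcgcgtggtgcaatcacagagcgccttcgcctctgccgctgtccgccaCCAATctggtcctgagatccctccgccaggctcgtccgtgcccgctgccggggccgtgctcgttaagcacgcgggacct
Insig1 (chr5:28071162-28071461, plus strand): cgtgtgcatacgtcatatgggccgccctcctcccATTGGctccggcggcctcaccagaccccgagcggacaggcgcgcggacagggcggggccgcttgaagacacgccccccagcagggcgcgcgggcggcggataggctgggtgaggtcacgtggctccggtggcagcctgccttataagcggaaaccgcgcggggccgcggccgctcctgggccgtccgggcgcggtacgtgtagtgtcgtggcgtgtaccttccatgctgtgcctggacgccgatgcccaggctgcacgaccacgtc
The Idi1 promoter holds CCAAT on either strand 2 times, that of Msmo1 3 times, and those of Cyp51 and Insig1 1 time each. Promoters were found for 9 of the 11 called enzymes, 12 promoters in all, and 9 of the 12 held CCAAT, against 37.4% of all 32851 mouse promoters in the table. The GC box GGGCGG, bound by Sp1, was also in 9 of the 12, against 35.7% of all promoters. The classical sterol regulatory element TCACNCCAC was searched on both strands in the same way and was in 0 of the 12, against 1.24% of all promoters. Of the 15 promoters of all measured enzymes, called or not, 12 (80%) held CCAAT and 12 the GC box. For the called enzymes the share was 75% for each of the 2 motifs. The 15 promoters include these 12, so the shares cannot tell whether either motif sets the called enzymes apart. These are matches of letters within 300 bases; they show neither binding nor a cause, and the motifs were searched after the changes were known.

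The regulators and uptake genes of the same pathway moved less evenly. Of 10 measured, 5 were called higher and 1 lower (median 0.19). Insig1, which holds the SREBP precursor in the endoplasmic reticulum and is itself an SREBP target, had log2 intensities of 10.27, 10.63, 10.92, 11.17 and 11.18 in treated livers, against 9.05, 9.39, 9.09, 9.56 and 9.96 in untreated livers. On this brightest probe all treated arrays lay above all untreated ones, a 2.68-fold rise. Its other probes rose less, by 0.59 and 0.55. Stard4, a cytosolic sterol carrier, rose by 1.02 ± 0.16 (SE, adjusted p = 6.43e-05), the lysosomal sterol carrier Npc2 by 0.78 and Srebf2, the gene of SREBP2 itself, by 0.50. Mbtps1, a protease that cleaves SREBP, fell by 0.65. The lipogenic factor gene Srebf1 was not called (log2 change -0.38, adjusted p = 0.217). The liver X receptor gene Nr1h3 rose by 0.48 on its brighter probe, while its second probe changed by -0.45.

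Genes of cholesterol export, esterification and ester hydrolysis did not move as a group, with 1 of 10 called higher, 2 lower and a median of -0.14. The exporter Abcg1, found mostly in macrophages and endothelium, rose by 1.13 ± 0.21 (SE, adjusted p = 0.000253), while Abca1, which loads nascent HDL, was at 5.02 ± 0.29 in treated livers and 5.05 ± 0.48 in untreated livers (SD, n = 5 each). Among hydrolases of stored cholesterol, Nceh1, a neutral cholesteryl ester hydrolase, fell by 0.93 and Lipa, the lysosomal acid lipase, by 0.37, while Ces1d and Ces1g changed by -0.12 and 0.16 and were not called. With the name prefix as a block Lipa was not called (adjusted p = 0.0615).

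Among 16 measured apolipoprotein and VLDL assembly genes, 3 were called higher and 4 lower, and the list median of 0.04 became -0.24 when arrays were scaled to equal medians; with the replicate number as a block 5 were called higher and 5 lower. Those that fell were Apob, Mttp, Sar1b and Apoa4. Apob, the structural protein of VLDL, fell by 0.90 ± 0.12 (SE, adjusted p = 1.45e-05), Mttp, which loads it with triglyceride, by 0.76, and Sar1b, a GTPase of the vesicles that carry large lipoproteins, by 0.88. Apoa4, a lipid-responsive apolipoprotein, was at 10.93, 11.34, 10.78, 10.76 and 11.02 in treated livers, against 14.09, 12.65, 12.17, 12.63 and 11.61 in untreated livers. Untreated replicate 1 held the highest Apoa4 value, and the groups did not overlap. Tm6sf2, a VLDL lipidation factor, rose by 0.85, and Apoa5, an activator of lipoprotein lipase, by 0.63. Of 9 measured lipoprotein receptor and remodelling genes, 3 were called higher and 0 lower (median 0.33). Angptl8, an insulin-induced inhibitor of lipoprotein lipase in other tissues, rose 3.75-fold, to 8.92, 8.50, 8.85, 8.57 and 7.39 in treated livers, against 6.74, 6.80, 6.92, 6.43 and 5.83 in untreated livers; treated replicate 5 stood below the other treated arrays and above all untreated ones. The remnant receptor Lrp1 rose by 0.65. Gpihbp1, the endothelial anchor of lipoprotein lipase, rose by 0.80 on its brighter probe and changed by 0.02 on the other. Lipoprotein lipase (Lpl) was not called (-0.25, adjusted p = 0.429).

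Bile acids are the main route by which cholesterol leaves the body, and their synthesis starts with Cyp7a1. Its log2 intensities were 11.55, 12.55, 12.63, 11.75 and 12.42 in treated livers and 9.72, 11.04, 12.36, 11.16 and 11.47 in untreated livers, and the groups overlapped. The 2.04-fold rise was just past the threshold (adjusted p = 0.026); the adjusted p was 0.0661 without treated replicate 2, 0.0688 without treated replicate 3 and 0.0812 without untreated replicate 1. With the name prefix as a block Cyp7a1 was not called (adjusted p = 0.0649). Cyp27a1, the first enzyme of the alternative route, rose by 0.43, and neither Cyp7a1 nor Cyp27a1 was called when the arrays were scaled to equal medians. Cyp7b1, the next enzyme of that route, fell by 1.16 (adjusted p = 0.0321), and lost its call without any 1 of treated replicates 1, 2 or 3 or untreated replicates 1, 3 or 5. It also lost its call with the name prefix as a block (adjusted p = 0.0794). In all, 2 of 17 measured genes of the synthesis list were called higher and 6 lower, with a median of -0.10, and 1 higher and 3 lower with the name prefix as a block. The peroxisomal side-chain enzymes Scp2 and Hsd17b4 fell by 0.68 and 0.62. Of 13 measured bile acid and organic anion transporters, 0 were called higher and 5 lower (median -0.33), among them the uptake carrier Slco1b2 (-0.65) and the bile salt export pump Abcb11 (-0.57).

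Genes of fatty acid oxidation were mostly lower. Mitochondria and peroxisomes burn fatty acids in the liver under the control of the nuclear receptor PPAR alpha, and the acetyl-CoA formed feeds ketone synthesis. Of 18 measured genes of mitochondrial oxidation and ketone synthesis, 0 were called higher and 12 lower, with a median of -0.54 that was -0.55 in batch 1 alone and -0.54 in batch 2 alone. Of 21 measured peroxisomal, omega-oxidation and thioesterase genes, 1 was called higher and 12 lower (median -0.57, and -0.50 and -0.69 within the batches). Pdk4, the kinase that spares glucose by blocking pyruvate dehydrogenase, had log2 intensities of 6.80, 8.80, 8.48, 9.86 and 9.28 in treated livers, against 10.46, 10.89, 9.74, 11.42 and 10.81 in untreated livers. The highest treated array passed the lowest untreated one, and the mean was 4.05-fold lower. Decr1 and Eci1, which handle unsaturated fatty acids, fell by 1.40 and 0.95. Hadh and Acadl, enzymes of the beta-oxidation spiral, fell by 1.01 and 0.91, and Cpt2 and Slc25a20, which bring acyl groups into the matrix, by 0.49 and 0.50. Ehhadh, the peroxisomal bifunctional enzyme, was at 9.86, 11.09, 10.32, 10.12 and 10.77 in treated livers and at 12.28, 11.79, 11.56, 12.50 and 11.92 in untreated livers, 2.99-fold lower with no overlap. Its peroxisomal partner Acaa1b fell by 0.97, Pex11a, which drives peroxisome division, by 0.85, and the fatty acid hydroxylase Cyp4a12a by 1.40. Ppara, the receptor's own gene, fell by 0.45 ± 0.12 (SE, adjusted p = 0.0086). The respiratory chain moved little: of 21 measured subunits, 0 were called higher and 3 lower, with a median of -0.11.

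**Figure D3:**
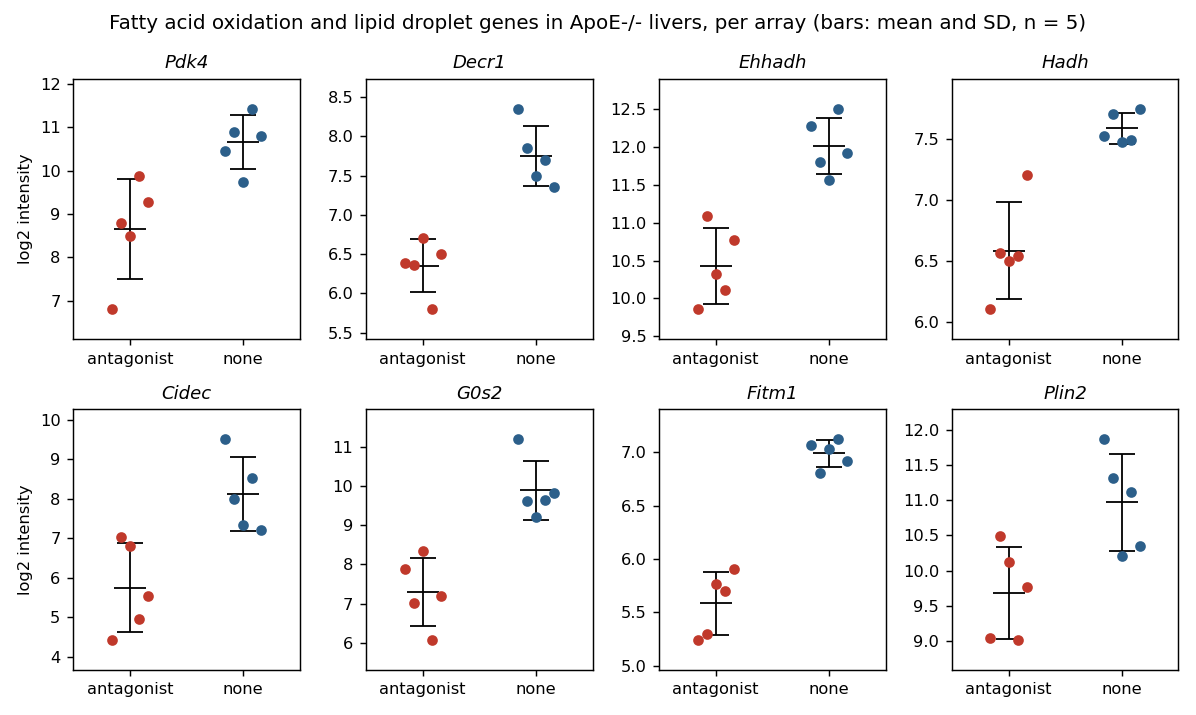
Normalised log2 intensity of 4 fatty acid oxidation genes (top row) and 4 lipid droplet genes (bottom row) on each ApoE-/- array, antagonist-treated livers in red on the left and untreated livers in blue on the right, with mean and SD (n = 5). Treated livers are lower in every panel; the arrays of the 2 groups overlap for Pdk4 and Plin2 and are apart for the other 6.

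Lipid droplet genes fell with them. Of 14 measured genes for droplet proteins and lipases, 0 were called higher and 9 lower, with a median of -0.61. Cidec, which fuses small droplets into large ones, was at 4.43, 7.02, 6.80, 4.96 and 5.55 in treated livers and at 9.50, 7.998, 7.33, 8.53 and 7.21 in untreated livers, a 5.15-fold fall with no overlap. G0s2, which holds back the lipase ATGL, fell 6.05-fold, and Fitm1, a droplet-forming membrane protein, by 1.40 ± 0.14 (SE, adjusted p = 7.56e-07). Plin2, the main coat protein of hepatocyte droplets, fell by 1.28, and Abhd5, the activator of ATGL, by 0.64. Cidec and Car3 were also the 2 measured adipocyte markers, both called lower, with sums of 516 to 1489 in treated livers and 3192 to 5302 in untreated livers. The other adipocyte markers searched were below detection in 5 cases, and the part of fat cells in these falls was not tested. Fatty acid and triglyceride synthesis genes were mixed, with 4 of 20 called higher, 5 lower and a median of -0.14 (2 higher and 6 lower under equal medians). Among all features 18.7% were called higher and 15.6% lower. Lpin1, a phosphatidate phosphatase and coactivator, had log2 intensities of 9.29, 9.75, 9.63, 11.03 and 10.44 in treated livers, against 6.60, 7.33, 9.12, 6.91 and 8.06 in untreated livers. Untreated replicate 3 stood close below the lowest treated array, and the rise was 5.36-fold. Acly, which supplies cytosolic acetyl-CoA, rose by 0.54. Dgat2, the last enzyme of triglyceride synthesis, fell by 0.49, the NADPH-making malic enzyme gene Me1 by 0.74, and the elongase gene Elovl6 by 0.86 on its brighter probe, with 0.03 on the other. The largest falls outside these lists also include Clstn3, a calsyntenin gene, and Slc25a30, a mitochondrial carrier: Clstn3 was 9.05-fold and Slc25a30 7.18-fold lower, both with no overlap. Car3, a carbonic anhydrase abundant in fat, muscle and male liver, was at 9.36, 9.07, 8.66, 9.71 and 10.49 in treated livers and 11.66, 12.30, 11.87, 11.78 and 11.57 in untreated livers, and fell 5.2-fold. Tsc22d1, Nrep, Tpm2, Hsd17b6 and Zfp979, all among the 15 largest falls, fell by 2.30, 2.26, 2.24, 1.98 and 1.98 in that order.

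Glucose and fasting genes split, with 3 of 22 called higher, 6 lower and a median of -0.15, against 18.7% higher and 15.6% lower among all features. With the replicate number as a block 5 were called higher and 7 lower. Ppp1r3c, which targets the phosphatase that switches on glycogen synthase, had log2 intensities of 10.01, 10.14, 10.29, 10.86 and 9.66 in treated livers and 8.17, 8.53, 8.58, 8.17 and 7.83 in untreated livers, 3.83-fold higher with no overlap. Glycogen synthase (Gys2) and Ugp2, which makes its substrate, fell by 0.94 and 0.97. The hepatokine gene Fgf21, a PPAR alpha target, fell by 1.33, and the glucose transporter gene Slc2a2 by 0.63. Glucose-6-phosphatase (G6pc) and Igfbp1 were not called, with changes of -0.31 and 0.49. Tat, a glucocorticoid-induced aminotransferase, rose by 1.10.

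Of 19 measured genes of the growth hormone axis and of male-biased liver expression, 0 were called higher and 5 lower (median -0.33). Hsd3b5, a male-specific steroid dehydrogenase, fell by 1.76 and Nudt7, a peroxisomal CoA hydrolase, by 1.43. The growth hormone receptor gene Ghr fell by 0.79 on its brightest probe, while its other 2 probes changed by 0.32 and -0.55. Drug-metabolising P450 genes were mixed, with 3 of 20 higher, 4 lower (2 with the name prefix as a block) and a median of -0.05. Over all features 18.7% were higher and 15.6% lower, near the shares of this list. Cyp2a4, a female-biased steroid hydroxylase, rose by 1.88, and Cyp3a11, the major xenobiotic hydroxylase, fell by 1.19. Among 25 phase II and NRF2 target genes, 7 were called higher and 8 lower, with a median of -0.24. Gstm2, a glutathione transferase, rose 2.43-fold, with 11.48, 11.37, 11.52, 11.14 and 11.18 in treated livers and 10.10, 9.90, 9.81, 10.37 and 10.09 in untreated livers, which did not overlap. The haem-degrading enzyme gene Hmox1, expressed by Kupffer cells as well as hepatocytes, rose by 1.14, and Nnmt, a nicotinamide methyltransferase, by 1.25. Rarres1, among the brightest falling genes, fell by 1.61. Urea cycle and amino acid genes showed 5 called higher and 4 lower of 21, near the 18.7% and 15.6% of all features, with a median of 0.08. Under equal medians 1 was called higher and 4 lower, with a median of -0.05, and with the name prefix as a block 4 were called higher and 2 lower.

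Clock genes moved in both directions. Dbp, a clock-driven transcription factor, had log2 intensities of 10.32, 7.54, 8.19, 7.43 and 7.997 in treated livers and 11.47, 11.16, 11.00, 10.49 and 10.14 in untreated livers. Treated replicate 1 reached the untreated range and the other 4 treated arrays lay well below it. Nr1d1 and Nr1d2, the repressors REV-ERB alpha and beta, fell by 1.01 and 1.29, while Per1 rose by 0.80 (not called with the name prefix as a block, adjusted p = 0.0541) and Arntl, the gene of BMAL1, by 1.17 (adjusted p = 0.0476). For Arntl the adjusted p lay between 0.0501 and 0.12 without treated replicates 2, 3, 4 or 5 or untreated replicates 1, 2, 3 or 5. Over the list, 2 of 12 measured were called higher and 3 lower, against 18.7% and 15.6% of all features. In so short a list these counts do not set clock genes apart from the other features. The list median was 0.11, and -0.12 with the name prefix as a block. The hours at which livers were taken are not stated in the labels. Of 18 immediate early and stress genes, 8 were called higher and 1 lower (median 0.62). The cell cycle inhibitor gene Cdkn1a was at 8.82, 10.46, 10.16, 10.13 and 9.34 in treated livers and 5.65, 5.81, 7.40, 7.26 and 7.21 in untreated livers, an 8.67-fold rise with no overlap. Fos, an AP-1 subunit induced within minutes of a stimulus, was at 10.82, 11.42, 11.52, 11.06 and 12.36 in treated livers and 8.79, 9.32, 9.54, 10.09 and 10.68 in untreated livers, with no overlap. Klf6 and Junb rose by 1.44 and 0.87. Fosb rose by 1.27 (adjusted p = 0.0308), and its adjusted p rose to between 0.0581 and 0.0916 without treated replicate 2, 4 or 5 or untreated replicate 1, 2 or 3. Of the unfolded protein and integrated stress response list 2 of 21 were called higher and 2 lower. The transcription factor gene Atf4 was up by 0.85 on its brighter probe and by 0.19 on the other. Of 11 heat shock chaperones 1 was called higher and 3 lower. With the replicate number as a block these counts were 3 higher and 4 lower in the stress response list and 2 higher and 4 lower among the chaperones. The metal-binding metallothioneins rose, Mt2 by 1.50 and Mt1 by 0.69, of which Mt1 was not called under equal medians (0.41, adjusted p = 0.227). Their list, with iron and haem genes, had 6 of 21 called higher and 2 lower and a median of 0.13, which was -0.03 under equal medians.

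Many of the largest rises were those of receptors of monocytes and macrophages. Kupffer cells and recruited macrophages carry activating and inhibitory C-type lectins, paired immunoglobulin-like receptors and Fc receptors, which bind microbes, antibody and damaged cells. Of 21 measured C-type lectins, Ms4a proteins and paired receptors, 16 were called higher and 1 lower, with a median of 1.00, which was 1.32 in batch 1 alone and 0.79 in batch 2 alone; another 10 listed genes were not detected. Of 8 measured Fc receptors and adaptors, 6 were called higher and 1 lower (median 1.06).

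**Figure D4:**
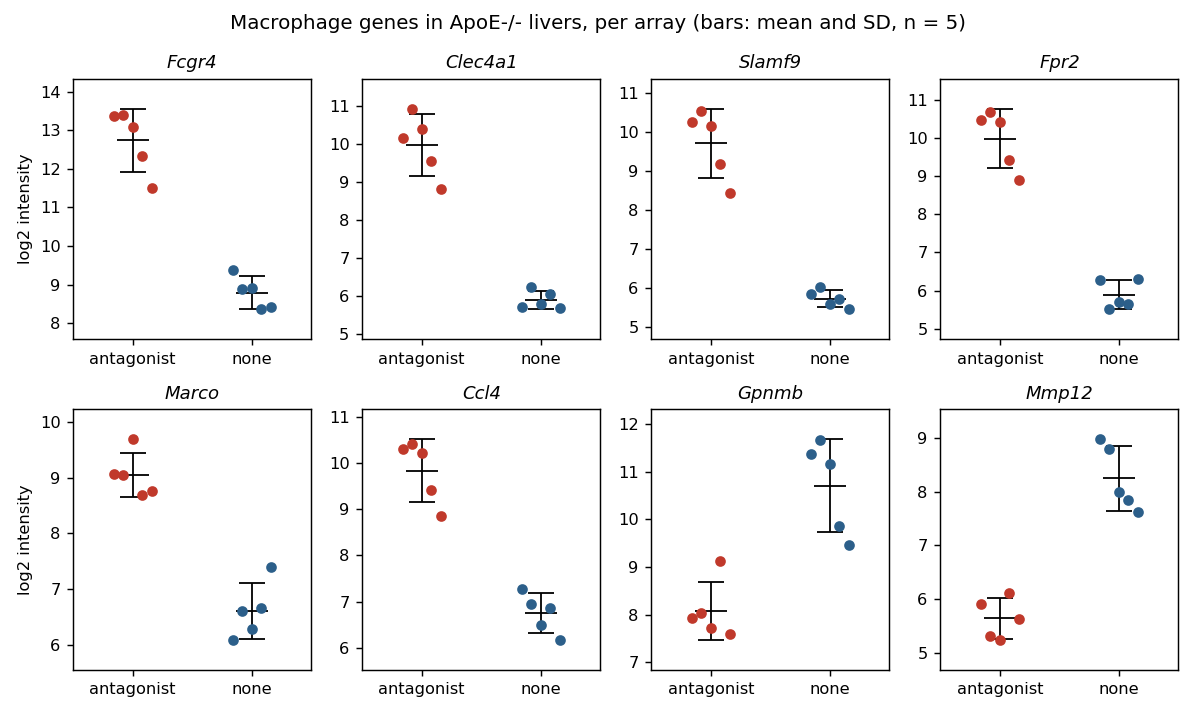
Normalised log2 intensity of 8 genes of macrophages on each ApoE-/- array, antagonist-treated livers in red on the left and untreated livers in blue on the right, with mean and SD (n = 5). The first 6 genes are higher in all 5 treated arrays, and Gpnmb and Mmp12 are lower in all 5.

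Klra17, a Ly49-family lectin of mouse leukocytes, was at 8.88, 9.87, 8.83, 8.20 and 7.64 in treated livers, against 4.58, 4.59, 4.39, 4.25 and 4.31 in untreated livers. It was not detected on any untreated array, which makes it at least 14.1-fold higher in treated livers. Fpr2, a receptor for formylated peptides that draws phagocytes to bacteria, was at 10.48, 10.69, 10.43, 9.42 and 8.90 in treated livers and 6.28, 5.51, 5.70, 5.64 and 6.31 in untreated livers, 17.1-fold higher. Treated replicates 4 and 5 were the lowest of the treated group for Fpr2 and still far above the untreated arrays. Fcgr4, the activating IgG receptor of mouse macrophages, was at 13.37, 13.40, 13.08, 12.32 and 11.51 in treated livers and 9.38, 8.89, 8.92, 8.36 and 8.42 in untreated livers. Treated replicates 4 and 5 were again the lowest of their group, and the log2 change was 3.94 ± 0.29 (SE, adjusted p = 1.92e-08). Clec4a1 and Slamf9, receptors of myeloid cells, rose 16.8-fold and 15.8-fold. Clec4b1, a lectin of dendritic cells and monocytes, was detected on 0 untreated arrays and was at least 9.90-fold higher. Clec4a3, Pilra and Ms4a6d rose by 3.26, 2.79 and 2.58. The shared signalling chains of these receptors rose too, Fcer1g by 2.69 and Tyrobp by 1.18. The inhibitory IgG receptor gene Fcgr2b, which in liver is mainly sinusoidal endothelial, fell by 0.62, and Clec7a, the beta-glucan receptor Dectin-1, fell by 0.67. Klra2, another Ly49-family gene, Ptpn22, a lymphoid and myeloid phosphatase, and Smpdl3b, a macrophage membrane phosphodiesterase, rose by 3.13, 3.16 and 3.18. Genes of the phagocyte oxidase, lysozymes and cathepsins, which kill and digest what these cells take up, showed 9 of 19 called higher and 0 lower, with a median of 0.36.

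Macrophage markers did not all move one way. Of 18 measured Kupffer cell and macrophage markers, 12 were called higher and 1 lower (median 0.90), and their summed linear intensity ran from 17872 to 26197 in treated livers, against 13735 to 16411 in untreated livers. Marco, a scavenger receptor, was at 9.07, 9.04, 9.69, 8.70 and 8.76 in treated livers and 6.09, 6.61, 6.29, 6.66 and 7.40 in untreated livers, 5.44-fold higher with no overlap. The complement subunit gene C1qb rose by 1.48, the growth factor receptor gene Csf1r by 1.13, and Spic, a transcription factor of iron-recycling macrophages, by 0.97. Adgre1, the gene of F4/80, rose by 1.19 on its brightest probe, with 0.97 and -0.08 on the others. Of 13 measured markers of lipid-associated and monocyte-derived macrophages, 4 were called higher and 2 lower, with a median of -0.19 and a summed intensity of 4917 to 9602 in treated livers, against 5559 to 11040 in untreated livers. Itgax, the gene of CD11c, was at 6.66, 7.36, 6.65, 6.46 and 5.90 in treated livers and 4.65, 4.42, 4.51, 4.47 and 5.02 in untreated livers, and rose 3.97-fold. Gpnmb, a glycoprotein of lysosomes that marks macrophages filled with lipid, went the other way, at 7.94, 8.03, 7.73, 9.13 and 7.60 in treated livers, against 11.36, 11.65, 11.16, 9.87 and 9.46 in untreated livers. The groups did not overlap, with a log2 change of -2.62 ± 0.36 (SE, adjusted p = 1.45e-05) and -1.70 on a second probe. In batch 2 alone the Gpnmb change was -1.30 (adjusted p = 0.105). Mmp12, macrophage elastase, was at 5.90, 5.31, 5.24, 6.12 and 5.62 in treated livers and 8.97, 8.80, 8.003, 7.84 and 7.63 in untreated livers, 6.11-fold lower with no overlap. Lgals3, the gene of galectin-3, rose by 0.91 although its groups overlapped, and was not called with the name prefix as a block (adjusted p = 0.0506).

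The target receptors and their pathway were read next. Tlr7 had log2 intensities of 6.32, 6.48, 6.73, 6.89 and 5.96 in treated livers and 6.27, 5.73, 5.81, 6.02 and 5.96 in untreated livers. The groups overlapped, and the rise of 0.52 ± 0.18 (SE, adjusted p = 0.0302) was not called without treated replicate 2, 3 or 4 or untreated replicate 2 or 3 (adjusted p 0.0535 to 0.0915). Nor was Tlr7 called with the name prefix as a block (adjusted p = 0.102). Both Tlr9 probes were below the detection rule, seen on 0 treated arrays and on 0 and 1 untreated arrays. Of 12 measured genes of endosomal Toll-like receptors and their trafficking, 6 were called higher and 0 lower (median 0.37). Tlr13, a receptor for bacterial ribosomal RNA, rose by 0.94, the receptor-processing protease gene Ctss by 1.46, and Unc93b1, which carries TLR7 and TLR9 to endosomes, by 1.00 on its brighter probe and 0.21 on the other. Slc15a3, an endosomal peptide transporter, rose by 0.71, a call that was lost without any 1 of treated replicates 1, 2 or 3 or untreated replicates 4 or 5. It was also lost with the name prefix as a block (adjusted p = 0.143). Of 10 surface receptors and co-receptors, 5 were called higher and 1 lower: Ly86, a partner of RP105, rose by 1.23, Cd14 by 0.95 and Tlr4, the endotoxin receptor, by 0.68, while the flagellin receptor gene Tlr5 fell, to 6.57, 6.75, 7.20, 6.23 and 6.91 in treated livers, against 8.25, 8.23, 8.39, 8.06 and 7.52 in untreated livers. Tlr2 was not called (0.39, adjusted p = 0.165), though it was with the replicate number as a block (adjusted p = 0.0458). Of 24 adaptors, kinases and feedback genes, 11 were called higher and 0 lower (median 0.33), with Myd88 up by 0.87 ± 0.17 (SE, adjusted p = 0.000537). Genes that MyD88 signalling is known to induce were among them: Nfkbiz rose by 1.94, Nfkbia by 0.84, Irf7 by 1.16, and Irak3, a brake on the pathway, by 1.49.

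Interferon-stimulated genes, many of them antiviral effectors, followed. Of 27 measured, 13 were called higher and 1 lower, with a median of 0.52 that was 0.52 and 0.50 within the batches. Oas2, a sensor of double-stranded RNA, was at 6.38, 6.36, 6.22, 6.10 and 5.50 in treated livers and 4.62, 5.01, 4.77, 4.74 and 4.45 in untreated livers, with no overlap. It was detected on 5 treated arrays and 1 untreated array. Mx2, Ifi27l2a and Ly6e rose by 1.30, 1.29 and 1.10. Among the 6 measured GTPases induced by interferon gamma, 4 were called higher and 0 lower, with Igtp up by 1.37 and Gbp2 by 1.34; 6 others were not detected.

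Chemokine genes were read next. Of 18 measured, 10 were called higher and 2 lower (median 0.63), and 7 more were not detected. Ccl4, which draws monocytes and T cells, was at 10.31, 10.41, 10.22, 9.42 and 8.86 in treated livers and 7.28, 6.94, 6.50, 6.87 and 6.17 in untreated livers, 8.55-fold higher with no overlap. Ccl5, which draws T cells, rose by 2.76 ± 0.21 (SE, adjusted p = 2.76e-08). Cxcl14 and the CXCR3 ligand Cxcl9 rose by 1.67 and 1.38, and the neutrophil attractant Cxcl1 by 0.94. Ccl3 rose by 1.00, at least 1.56-fold higher since it was not detected in untreated livers. Of 20 genes for cytokines, inflammasome parts and leukocyte adhesion, 9 were called higher and 2 lower. Il1b was at 8.31, 10.02, 8.60, 8.38 and 8.20 in treated livers and 6.45, 6.41, 6.41, 6.23 and 6.35 in untreated livers, with treated replicate 2 above the rest and no overlap. Casp1, which cleaves its product, rose by 1.54, the adaptor Pycard, not detected in untreated livers, was at least 2.48-fold higher, and the leukocyte integrin gene Itgb2 rose by 1.95.

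Antigen presentation genes were also higher. All 8 measured MHC class II genes were called higher, with a median of 0.97, and 2 others were not detected. H2-Ab1 had log2 intensities of 11.53, 11.12, 11.74, 11.64 and 11.05 in treated livers and 10.73, 10.44, 10.13, 10.41 and 10.10 in untreated livers, with no overlap. H2-Aa, the invariant chain gene Cd74 and the peptide editor H2-DMb1 rose by 1.01, 0.80 and 1.08. Of 17 MHC class I and immunoproteasome genes, 10 were called higher and 0 lower (median 0.44), led by the immunoproteasome subunit Psmb10 at 0.98. Of 17 subunits of the constitutive proteasome, 0 were called higher and 0 lower by limma (1 had an unadjusted p under 0.05), with a median of -0.12, although 5 were called lower when the arrays were scaled to equal medians.

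Markers of other cells were read beside these changes. Of 8 measured T and NK cell markers, 7 were called higher and 1 lower, while 7 others were not detected. Cd3e, a signalling chain of the T cell antigen receptor, was at 6.31, 6.24, 6.27, 6.04 and 5.81 in treated livers, where it was detected on all 5 arrays, and at 4.54, 4.74, 4.83, 4.87 and 4.49 in untreated livers, where it was detected on 1. Thy1 rose by 1.49. The exception was Cd8b1, which fell by 0.76 on its brighter probe and changed by 1.19 on a second probe; the mean of its probes gave 0.21, so it has no settled direction. Of 5 dendritic cell markers 4 were called higher and 0 lower, with Batf3, a factor of cross-presenting dendritic cells, up by 1.81 and Siglech, of plasmacytoid dendritic cells, by 0.88. Only 4 B cell markers passed detection: Cd79b rose by 2.00, and Cd72, which mouse macrophages also express, rose 16.9-fold, to 9.86, 10.40, 9.81, 9.39 and 8.33 in treated livers, against 5.77, 5.52, 5.49, 4.86 and 5.74 in untreated livers. Of 8 neutrophil markers 2 were called higher and 0 lower; S100a9 was not called (0.37), and Lcn2, which hepatocytes also make, rose by 1.13 (adjusted p = 0.0319), which passed 0.05 without treated replicate 1, 3 or 4 or untreated replicate 3, 4 or 5 and, at 0.0508, with the replicate number as a block. With the name prefix as a block Lcn2 was not called either (adjusted p = 0.108). Sinusoidal endothelial markers were mixed, 4 of 13 higher and 3 lower, with Pecam1 up by 1.12. Of 18 stellate cell and matrix genes, 6 were called higher and 0 lower, with Vim up by 1.05. With the name prefix as a block 3 were called higher, and 3 under equal medians. Their summed intensity was 12193 to 14982 in treated livers, against 8601 to 11565 in untreated livers. Krt23, a keratin, fell 8.96-fold, to 4.94, 4.70, 4.83, 5.52 and 4.79 in treated livers, against 9.29, 8.15, 7.76, 7.90 and 7.49 in untreated livers, and was the only 1 of 4 bile duct markers called. Of 3 red cell genes 1 was called higher and 1 lower, with Slc4a1 up by 1.70 and Alas2 down by 0.52. By limma, 0 of 9 hepatocyte markers were called (median -0.08), and 0 had an unadjusted p under 0.05. Under equal medians their median was -0.26, again with 0 called. The Alb probe varied widely between arrays, with an SD of 1.53 in treated livers and 0.67 in untreated livers. The summed intensity of hepatocyte markers was 188620 to 208443 in treated livers and 199327 to 213490 in untreated livers. The summed intensities of the other marker lists were 232 to 300 in treated livers and 128 to 151 in untreated livers for dendritic cells. They were 429 to 1579 in treated livers and 117 to 165 in untreated livers for B cells. For T and NK cells they were 839 to 1082 in treated livers and 724 to 1139 in untreated livers, which overlapped. In the B cell sum most of the signal of treated livers was that of Cd72. Neutrophil markers summed to 2209 to 6570 in treated livers and 1488 to 3089 in untreated livers, endothelial markers to 4817 to 6197 in treated livers and 4927 to 5465 in untreated livers, with overlap in both. The sums of bile duct, red cell and pancreas acinar markers overlapped between the groups as well. The part of any cell type in the gene changes above was not tested.

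Some genes of secreted acute phase proteins were higher. Of 23 measured, 9 were called higher and 1 lower (median 0.32), against 18.7% and 15.6% of all features. Under equal medians 5 were called higher and 1 lower, with a median of 0.10. Apcs, the gene of serum amyloid P and the main acute-phase pentraxin of mice, was at 11.02, 11.27, 11.26, 10.94 and 10.48 in treated livers and 9.53, 9.18, 8.93, 9.68 and 9.46 in untreated livers, 3.11-fold higher with no overlap, and Orm2 rose by 1.15. Of 28 complement and coagulation genes 8 were called higher and 2 lower, with a median of 0.11; under equal medians 5 were called higher and 3 lower, with a median of -0.01. In the normalisation used throughout, the 3 largest rises of this list were the C1q chains, which macrophages make.

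Cell cycle genes were higher as well. Of 18 measured cell cycle and replication genes, 12 were called higher and 1 lower (median 0.70), and 7 were not detected. Ccnd2, cyclin D2, was at 9.99, 10.38, 9.86, 8.87 and 8.54 in treated livers and 6.27, 6.26, 6.22, 6.47 and 5.90 in untreated livers, 9.87-fold higher with no overlap. Ccnd1 rose by 1.43, the helicase subunit gene Mcm6 by 1.37, and Cdk1, the mitotic kinase, by 1.00, at least 1.52-fold higher because it was not detected in untreated livers. Of 13 measured cytosolic ribosomal protein genes, 9 were called higher and 0 lower with a median of 0.37, Rpl3 leading at 0.58; under equal medians 5 were called.

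The response was then set against that of wild-type livers, in which 4903 features (43.2%) were called, 2696 (23.8%) higher and 2207 (19.5%) lower. The 2 comparisons share no arrays, but 1 fit gave both the same estimate of spread for each feature. Features were chosen by detection on the ApoE-/- arrays only. The 2 sets of calls are therefore not independent. Of the 3890 calls in ApoE-/- livers 2886 (74.2%) were also called in the same direction in wild-type livers, which is 58.9% of the wild-type calls, and 16 were called in opposite directions. Among the 2886, the change was larger in wild-type livers for 1950, with a median size of 0.64 in ApoE-/- livers and 0.74 in wild-type livers. The difference of the 2 changes, ApoE-/- minus wild type, was called for 410 features (3.61%), 140 positive (1.23%) and 270 negative (2.38%), and for 1963 at an unadjusted p under 0.05. Blocking on the replicate number within genotype gave 691 calls and blocking on the array batch 624, while batch 1 by itself gave 164 and batch 2 by itself 270. Without treated ApoE-/- replicate 1 the count was 673, and without wild-type treated replicate 4 it was 267. Of the 410, 356 had the larger change in wild-type livers, and for 134 the fitted changes had opposite signs.

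**Figure D5:**
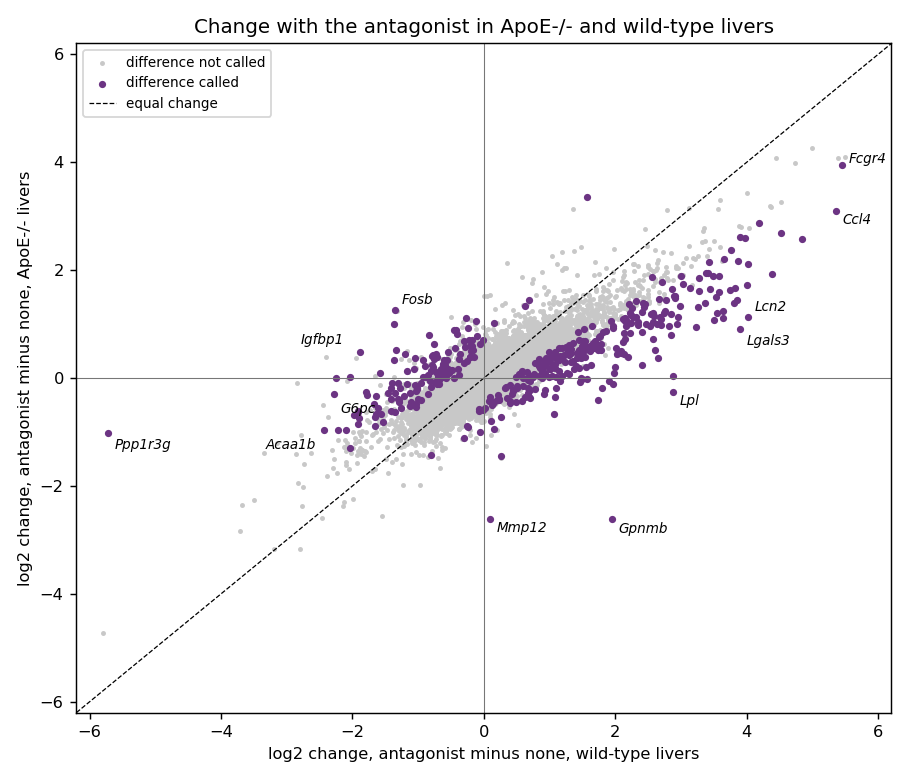
Log2 change with the antagonist in ApoE-/- livers (vertical) against that in wild-type livers (horizontal) for the 11345 features; purple points are the 410 whose difference was called and the dashed line marks equal change. Gpnmb and Mmp12 lie far below the line, at -2.62 and -2.61 in ApoE-/- livers, and Ppp1r3g far to its left, at -5.72 in wild-type livers.

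Genes of lipid-laden macrophages were among those that differed between the genotypes. Gpnmb changed by -2.62 in ApoE-/- livers and by 1.94 in wild-type livers, a difference of -4.56 ± 0.50 (SE, adjusted p = 3.39e-05). Its untreated level was a mean of 10.70 in ApoE-/- livers and 4.89 in wild-type livers. The lowest detected signal on the untreated wild-type arrays was 4.87 to 5.06. Gpnmb thus lay at the detection floor there, and a fall in wild-type livers could not have been seen. Mmp12 changed by -2.61 in ApoE-/- livers and 0.09 in wild-type livers, Lpl by -0.25 against 2.88 in wild type, and Lgals3 by 0.91 against 3.90 in wild type, each with a called difference (adjusted p 7.66e-05, 3.39e-05 and 3.39e-05). Several inflammatory genes rose in both genotypes but less in ApoE-/- livers: Ccl4 by 3.10 against 5.36 in wild type, Cxcl1 by 0.94 against 3.22, Ms4a6d by 2.58 against 4.83, and Fcer1g by 2.69 against 4.52. In each of these 4 the difference was called (adjusted p 0.00776, 0.000157, 0.00309 and 0.00957 in that order). Clec7a moved in opposite directions, -0.67 in ApoE-/- livers and 1.06 in wild-type livers.

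Several metabolic genes lay on the positive side. Ppp1r3g, a glycogen-targeting phosphatase subunit induced by feeding, changed by -1.02 in ApoE-/- livers and by -5.72 in wild-type livers, a difference of 4.70 ± 0.50 (SE, adjusted p = 3.39e-05). Its ApoE-/- call was lost without treated replicate 1, 2 or 3 or untreated replicate 2, 4 or 5. G6pc changed by -0.31 in ApoE-/- livers and by -2.28 in wild-type livers (difference 1.98), and Igfbp1 by 0.49 in ApoE-/- livers and -1.89 in wild-type livers (difference 2.38, adjusted p = 0.0472, and up to 0.0912 without single arrays). Among the fatty acid genes the falls were smaller in ApoE-/- livers for Acaa1b (-0.97 against -2.22), Me1 (-0.74 against -1.90) and Ppara (-0.45 against -1.29), each with a called difference. Stard4 rose by 1.02 in ApoE-/- livers and changed by 0.16 in wild-type livers (difference 0.87, adjusted p = 0.0372), which was not called with the replicate number as a block (adjusted p = 0.0608) or without several single arrays (up to 0.0804). No sterol synthesis enzyme had a called difference: of the 14, 0 were called in either direction by limma, 6 had an unadjusted p under 0.05, with changes of 3.14 in ApoE-/- livers and 1.35 in wild-type livers for Sqle, and a list median of 1.07 in ApoE-/- livers against 0.86 in wild-type livers.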

How the data were processed

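Liver RNA was read on Illumina mouse BeadChips, 5 arrays in each of 4 groups. The deposited table held the authors' intensity of each probe, not background-subtracted, with array means equal within genotype and array batch; per the submitters' processing notes GenomeStudio and BeadStudio were used, with settings not given in the sources used here. Per the file headers, each intensity has a detection p-value beside it; how it was computed is not given in the sources used here. Every per-sample column was used.

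Intensities were processed with neqc (normexp, quantile, log2, offset 16) in limma 3.58.1 under R 4.3.3. Of 45281 probes, 34885 had 1 symbol, 18 several and 10378 none. Where a gene had several detected probes, the brightest by its mean over the 10 ApoE-/- arrays was kept. A fit of 4 group means over 20 arrays, with eBayes, gave p-values adjusted over 11345 features (Benjamini-Hochberg, 0.05); the number of arrays limits their precision. "At least" folds set the dim group at the lowest signal detected on each array. Genes named are a short panel, the 15 largest rises and falls, up to 6 called members of each list by smallest adjusted p, any member of a list with 10 or fewer measured, and, by similar rules, called differences between genotypes and bright genes. Members and lists were chosen with earlier results of these data known. The fit was tested on simulated data. Same-numbered treated and untreated ApoE-/- arrays deviated together (r = 0.372, 0.198, 0.162, 0.297 and 0.332, and 0.212, 0.171, 0.123, 0.082 and 0.082 within array batches), and for replicate 3 another number reached 0.168. Numbers were therefore fitted as a block beside the unblocked fit, although the pairing is weak within batches and no label states it. Alternatives covered normalization, offset, detection filter, probe choice, blocks, batches, a minimum change and leaving out each array. Coordinates and promoters are RefSeq's on GRCm38.p6.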

Additional observations from a re-analysis of the deposited data

Results flagged for a closer look

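Single arrays stood apart from the other 4 of their group, by a gap of more than 0.71 of the range, in 15 of the 372 gene and group pairs examined; chance alone marks about 1 in 20. In treated ApoE-/- livers the log2 intensities were those of Angptl8 in replicate 5 (7.39, the others 8.50 to 8.92), Lrp1 in replicate 1 (8.51, the others 8.06 to 8.17), Dbp in replicate 1 (10.32, the others 7.43 to 8.19), Nr1d1 in replicate 1 (5.96, the others 4.43 to 4.57), Gpnmb in replicate 4 (9.13, the others 7.60 to 8.03), Il1b in replicate 2 (10.02, the others 8.20 to 8.60) and Slc4a1 in replicate 1 (7.24, the others 6.53 to 6.71). In untreated ApoE-/- livers they were those of Cyp27a1 in replicate 1 (12.27, the others 12.62 to 12.70), Cyp4a12a in replicate 3 (12.82, the others 13.22 to 13.34), Gys2 in replicate 2 (10.01, the others 9.57 to 9.69), Fcgr2b in replicate 1 (8.21, the others 8.59 to 8.61), Adgre1 in replicate 5 (9.92, the others 9.39 to 9.51), Tlr13 in replicate 1 (5.37, the others 5.90 to 6.07), Cd14 in replicate 1 (7.20, the others 6.91 to 6.97) and H2-Oa in replicate 3 (4.33, the others 4.51 to 4.57). Replicate 5 of the treated group, nearest to the untreated livers on the first principal component, accounts for 1 of them.

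The change with the antagonist differed between the genotypes, and with them the diets, by the interaction of the limma fit for the genes that follow, given as the log2 change in ApoE-/- livers against that in wild-type livers. Lower in ApoE-/- livers were Gpnmb (-2.62 against 1.94, difference -4.56), Mmp12 (-2.61 against 0.09, difference -2.71), Lpl (-0.25 against 2.88, difference -3.13), Lgals3 (0.91 against 3.90, difference -2.98), Lcn2 (1.13 against 4.02, difference -2.89), Ccl4 (3.10 against 5.36, difference -2.26) and Ms4a6d (2.58 against 4.83, difference -2.25). Also lower were Cxcl1 (0.94 against 3.22, difference -2.28), Fcgr4 (3.94 against 5.45, difference -1.51), Fcer1g (2.69 against 4.52, difference -1.83), Tlr2 (0.39 against 2.20, difference -1.81), Slc15a3 (0.71 against 2.58, difference -1.86), Nfkbiz (1.94 against 3.40, difference -1.46) and Itgb2 (1.95 against 3.38, difference -1.42). The same held for C1qb (1.48 against 2.90, difference -1.42), Spic (0.97 against 2.52, difference -1.55), Clec7a (-0.67 against 1.06, difference -1.74), Hmox1 (1.14 against 2.95, difference -1.81), Ear10 (1.24 against 3.64, difference -2.40), Bcl2a1d (1.92 against 4.38, difference -2.46) and S100a9 (0.37 against 2.65, difference -2.28). Higher in ApoE-/- livers were Stard4 (1.02 against 0.16, difference 0.87), Apoa5 (0.63 against -0.06, difference 0.69), Cd3e (1.44 against 0.68, difference 0.76), Ppp1r3g (-1.02 against -5.72, difference 4.70), G6pc (-0.31 against -2.28, difference 1.98), Igfbp1 (0.49 against -1.89, difference 2.38), Fosb (1.27 against -1.36, difference 2.63) and Tat (1.10 against -0.27, difference 1.37). Also higher were Acaa1b (-0.97 against -2.22, difference 1.25), Me1 (-0.74 against -1.90, difference 1.16), Ppara (-0.45 against -1.29, difference 0.84), Rusc2 (0.63 against -0.76, difference 1.39) and Ccn1 (0.53 against -1.34, difference 1.87). The differences of Fcgr4, Itgb2, Stard4, Apoa5, Cd3e, Igfbp1, Tat and S100a9 each lost their call without 1 or more single arrays.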

How the results depend on the processing

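Scaling, offset, probe choice, filter, a fit of the ApoE-/- arrays alone and the array batch as a block moved the 3890 calls by under 1.5 times. The counts lay between 3423 (ApoE-/- arrays alone) and 4604 (array batch as a block). With the column-name prefix as a block 3674 were called. That fit leaves untreated ApoE-/- replicates 4 and 5 out of the contrast, so it cannot test the prefix. Batch 2 alone gave 1177 calls (696 higher, 481 lower) and a minimum log2 change of 0.5 gave 562 (422 higher, 140 lower); the one uses fewer arrays and the other a stricter null. Leaving out single arrays gave 3292 to 4209 calls, 1808 to 2275 higher and 1484 to 1934 lower. Of the 410 differences between genotypes, 260 were called with no detection filter, 624 with the batch block, 164 and 270 in batches 1 and 2 alone and 39 with the minimum change; without single arrays the count ran from 267 to 673. With the replicate number as a block, the paired fit, 4789 features were called, and 691 differences. Among the named genes the block changed the calls of Tlr2, Lcn2 and the Stard4 difference and no other. Each array's median set equal moved the median of all features to -0.05 and the share of higher calls to 46.8%, against 54.4%. Directions turned for Cd8b1 with the mean of its probes (0.21), for Srebf1 (0.027) and G6pc (0.085) in batch 2 alone, and for Abca1 in batch 1 alone (0.002) and without single arrays (-0.19 to 0.13); of these only Cd8b1 was called, and the cause was not tested. Signal over background limits dim genes, 248 of which were detected on at most 1 untreated array.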

Other observations

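The genes below were chosen after their values were seen, so no test is given. The first were picked as genes known to respond to glucocorticoids. How many of them were higher carries no weight, because they were picked with their values in view. A part of glucocorticoids was not tested. Fkbp5, a chaperone of the glucocorticoid receptor, was at 9.45 ± 0.30 in treated ApoE-/- livers and 7.49 ± 0.75 in untreated ones (log2, SD, n = 5 each), a change of 1.97. Tsc22d3, which encodes GILZ, changed by 2.00 and Ddit4, an inhibitor of mTORC1, by 2.26. The dim Zbtb16 changed by 0.74. Per1 and Tat, whose groups overlapped, changed by 0.80 and 1.10, while Sgk1, another such gene, changed by -0.05. The changes in wild-type livers were 0.88 for Fkbp5, 1.18 for Tsc22d3, 1.03 for Ddit4 and 0.58 for Zbtb16. They were 0.03 for Per1, -0.27 for Tat and 0.26 for Sgk1.

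Some leukocyte genes were picked in the same way. Ptprc, the gene of CD45, changed by 1.97, the actin regulator Coro1a by 2.60, the kinase Prkcb by 2.40 and Spi1, the myeloid factor PU.1, by 1.29. The replication-dependent histone genes H2ac22, H2ac7 and H2ac24 changed by 2.05, 1.98 and 1.90. Cyp17a1, a steroid hydroxylase, changed by 2.31. On the lower side stood Foxq1, a forkhead factor, at -1.48 in ApoE-/- livers and 0.25 in wild-type livers, and Foxa1, a liver pioneer factor, at -1.28 and -1.48 in the same order.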
